A study of Mus musculus with 32 samples.

Results

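The genes described here are 9 chemokine receptors through which regulatory T cells (Tregs) find lymphoid organs, barrier tissues and inflamed sites: Ccr4, Ccr6, Ccr7, Ccr8, Ccr9, Cxcr3, Cxcr4, Cxcr5 and Cxcr6. They were taken by gene symbol from deposited tables of 54087 genes and were present in the tables of all 32 libraries. All 9 were among the 14313 genes that passed the filter on low counts. The cells were GFP+ Tregs purified from C57BL/6 mice aged 2.5 months, and every group carried the Foxp3-IRES-GFP knock-in, which makes GFP from the Foxp3 locus. Tregs were cultured with a TNFR2 agonist (TNC-sc(mu)TNF80, also called STAR2, 12 ng/ml), a 4-1BB agonist (the antibody 3H3, 10 µg/ml), a DR3 agonist (its ligand TL1A, 12 ng/ml) or an OX40 agonist (OX40L, 100 ng/ml), without agonist (controls), or were left resting. Each culture lasted 18 h or 36 h, and controls and agonist groups alike received plate-bound anti-CD3 and anti-CD28 plus IL-2 (10 ng/ml). There were 3 libraries in each of the 11 groups, except for 2 with the OX40 agonist at 18 h. Nothing in the labels says that libraries of a group came from separate mice or cultures, so p-values measure the spread between these libraries, which may be technical.

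Chemokine receptors are G protein-coupled receptors that read gradients of secreted chemokines and, through Gi proteins, steer cells along them. Ccr7 and Cxcr5 guide T cells to the T cell zone and the B cell follicle of lymph nodes, and Cxcr4 responds to Cxcl12 of bone marrow and stroma. Ccr4 and Ccr8 are receptors of effector Tregs in skin, other tissues and tumours, Ccr6 follows Ccl20 to mucosal surfaces and Ccr9 follows Ccl25 to the small intestine. Cxcr3 binds interferon-induced chemokines such as Cxcl10, and Cxcr6 binds Cxcl16.

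Total expected counts were 11880270 to 38083925 per library. The 8 Treg markers, Foxp3 and Il2ra among them, summed to 5014 to 6528 CPM (counts scaled to a common library total by TMM) in cultures and 3881 to 4077 CPM in resting cells, and none was at 0 in any group. The higher sum did not hold for every marker. By the edgeR test used below, 4 of the 8 were higher and 3 lower in controls at 18 h than in resting cells. In controls at 36 h 3 were higher and 5 lower. Over all tested genes 40.9% were higher and 40.1% lower at 18 h, and 42.4% and 42.1% at 36 h. Sums of 14 B cell markers were 272 to 439 CPM in cultures against 775 to 799.5 CPM in resting cells. At most 1 of these 14 was at 0 in any group. The 16 myeloid and dendritic cell markers summed to 2.95 to 13.4 CPM in cultures against 17.7 to 20.4 CPM in resting cells. The 12 markers of cytotoxic, natural killer and gamma-delta T cells summed to 18.1 to 42.6 CPM against 37.4 to 39.2 CPM. Per group 2 to 6 of them were at 0. The 12 markers of conventional helper T cells summed to more in cultures, at 233 to 496 CPM against 129 to 134 CPM. Their sum was also higher with agonists than in controls of the same time, at 278 to 342 CPM against 233 to 237 CPM at 18 h and 416 to 496 CPM against 329 to 348 CPM at 36 h. B cell markers at 18 h were 336 to 439 CPM with agonists against 305 to 330.4 CPM in controls, and those of cytotoxic, natural killer and gamma-delta T cells 21.7 to 28.5 CPM against 18.1 to 18.9 CPM. Myeloid and dendritic cell markers at 36 h were 7.14 to 11.4 CPM with agonists against 12.1 to 13.4 CPM in controls. None of these ranges overlapped. The same lists at the other time overlapped controls, with 272 to 315 against 278 to 292 CPM, 31.3 to 42.6 against 39.7 to 40.9 CPM and 2.95 to 5.88 against 4.2 to 5.71 CPM. By the same edgeR test 2 to 4 of the 12 helper T cell markers were higher and 1 to 3 lower per agonist comparison. At 18 h 1 to 2 of 13 tested B cell markers were higher and 0 lower. Of 8 tested cytotoxic, natural killer and gamma-delta T cell markers 1 was higher and 0 to 1 lower at 18 h. Of 8 tested myeloid and dendritic cell markers 0 were higher and 0 to 2 lower at 36 h. Over all tested genes 6.97% to 15.8% were higher and 6.21% to 15.3% lower per agonist comparison. Erythroid and platelet markers, 10 in all, summed to 0.511 to 2.12 CPM in cultures against 5.33 to 7.2 CPM in resting cells. The part of other cell types in the receptor results was not tested, and in bulk RNA fewer cells of a type and less RNA per cell cannot be told apart.

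The receptors lie on 5 chromosomes, with 5 of the 9 on chromosome 9 (mm10). These are Ccr4 at chr9:114490316-114504916 and Cxcr5 at chr9:44511787-44561877 on the minus strand, and Ccr8 at chr9:120092114-120094906, Ccr9 at chr9:123678439-123784330 and Cxcr6 at chr9:123806475-123811760 on the plus strand. Ccr6 is at chr17:8236043-8257141 on the plus strand, and Ccr7 at chr11:99144196-99155077, Cxcr3 at chrX:101731535-101734269 and Cxcr4 at chr1:128588199-128592293 on the minus strand. Whether the counting used strand is not given in the sources used here, so reads of genes that overlap on opposite strands may not have been told apart. Cxcr6 lies within Fyco1 of the opposite strand, with 0 shared exonic bases. Cxcr5 shares 110 exonic bases with Bcl9l, and Ccr9 shares 1932 with a transcript of the opposite strand, 269 with a noncoding RNA of its own strand and 22 with Slc6a20a.

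Sequence of the 250 bases before the annotated transcription start was available from RefSeq (GRCm38.p6, the assembly of mm10) for 7 of the 9 receptors, in 8 windows because Ccr6 has a pair of starts. Both strands were searched for the AP-1 motif TGANTCA, the kB consensus bound by NF-kB and the KLF motif GGGTGTG. The windows shown are those with a match, of Ccr4 and Ccr6, and that of Cxcr6, the receptor that fell with every agonist. Capitals mark the matches.
Ccr4, chr9:114496545-114496794, minus strand: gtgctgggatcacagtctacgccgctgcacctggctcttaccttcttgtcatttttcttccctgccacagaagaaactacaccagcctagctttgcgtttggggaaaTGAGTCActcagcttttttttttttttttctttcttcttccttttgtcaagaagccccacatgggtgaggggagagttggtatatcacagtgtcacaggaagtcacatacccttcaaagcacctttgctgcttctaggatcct
Ccr6, downstream start, chr17:8242276-8242525, plus strand: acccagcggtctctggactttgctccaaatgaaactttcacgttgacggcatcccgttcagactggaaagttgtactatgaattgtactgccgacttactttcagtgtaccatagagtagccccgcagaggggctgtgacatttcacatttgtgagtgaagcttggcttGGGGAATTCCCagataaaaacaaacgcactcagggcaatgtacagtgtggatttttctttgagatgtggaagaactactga
Cxcr6, chr9:123806227-123806476, plus strand: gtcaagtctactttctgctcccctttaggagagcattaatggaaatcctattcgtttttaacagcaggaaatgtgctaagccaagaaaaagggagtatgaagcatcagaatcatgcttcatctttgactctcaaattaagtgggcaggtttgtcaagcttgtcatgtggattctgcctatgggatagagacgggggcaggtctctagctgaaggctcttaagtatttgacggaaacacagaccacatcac
The AP-1 match of Ccr4 begins at position -143 from the start. The Ccr6 window holds kB matches at -81 and -80 that overlap, and the window of its other start holds none. The windows of Ccr8, Ccr9, Cxcr3, Cxcr4 and Cxcr6 hold no match to these 3 patterns. Of 32851 windows of this length in the RefSeq table, 6.75% hold the AP-1 motif, 7.25% the kB consensus and 6.93% the KLF motif. A match describes letters, not a bound site.

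Levels were compared between genes in TPM (transcript abundances scaled within a library), which account for transcript length. In resting Tregs Ccr7 stood first with 191 TPM and Cxcr4 second with 132 TPM. Cxcr3, Ccr6 and Ccr8 followed with 66.5, 63.6 and 56.4 TPM, and the ranges of neighbours among these 3 overlapped. Cxcr5 had 43.2, Ccr4 26.6, Cxcr6 10.3 and Ccr9 4.94 TPM. In controls at 18 h Ccr7 (274 TPM) and Ccr8 (258 TPM) led, Ccr6 had 97.4 and Ccr4 71.3 TPM, and Cxcr3, Cxcr6, Cxcr4 and Cxcr5 had 26.4, 24.2, 20.7 and 14.5 TPM. Of these, Cxcr3 and Cxcr6 overlapped. In controls at 36 h Ccr8 stood above Ccr7, with 239.5 to 248 TPM against 224 to 233 TPM. Ccr7 had the higher mean of the pair in all 8 agonist groups, although both genes overlapped with the DR3 agonist at 36 h.

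The TPM of all 9 receptors summed to 595 ± 22.4 in resting cells, 788 ± 30.4 in controls at 18 h and 722 ± 10.6 in controls at 36 h (SD, n = 3 each). The share of Cxcr4 in that sum was 22.2% in resting cells, 2.62% in controls at 18 h and 1.35% in controls at 36 h. That of Ccr8 was 9.48%, 32.8% and 33.8% in the same order. With the 4-1BB agonist at 18 h Ccr8 gave 20.8% and Ccr7 45.3% of the sum, against 32.8% and 34.9% in controls at 18 h.

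**Figure D1:**
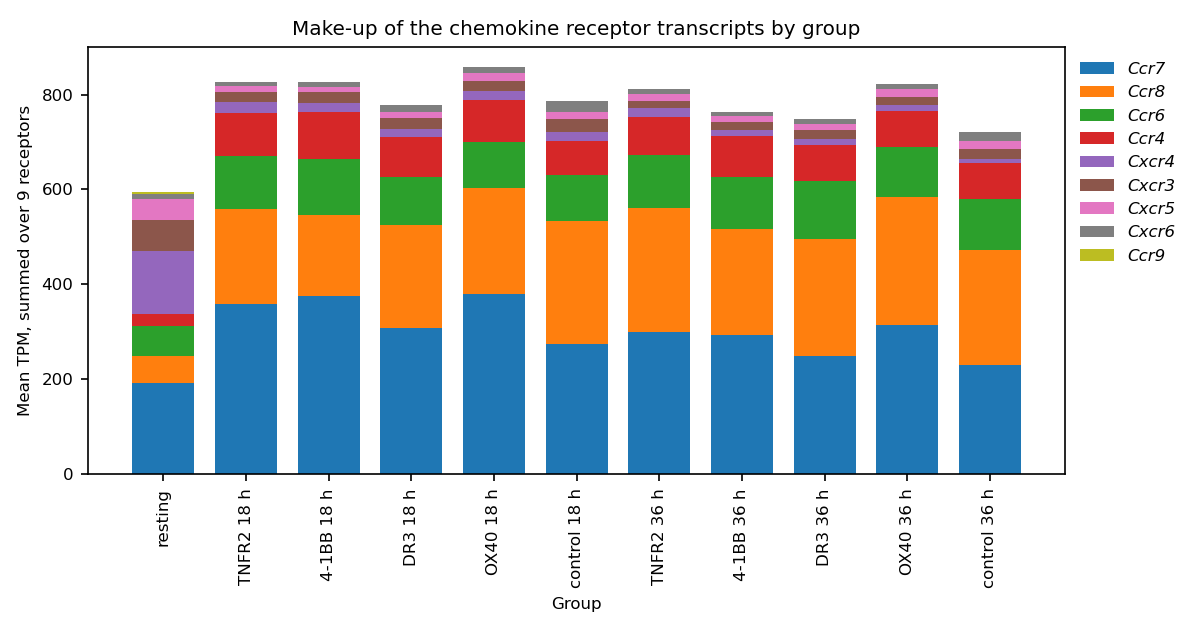
Stacked bars give the mean TPM of each of the 9 receptors (y axis, summed) in each of the 11 groups (x axis). The cultured groups total 722 to 858 TPM with wide Ccr7 and Ccr8 bands, and resting cells total 595 TPM with a broad Cxcr4 band.

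Control culture changed all 9 receptors against resting Tregs at both times. Ccr8, Ccr4, Cxcr6, Ccr6 and Ccr7 rose and Ccr9, Cxcr4, Cxcr5 and Cxcr3 fell. The contrast was broad: by edgeR's quasi-likelihood test with Benjamini-Hochberg adjustment over all tested genes, 80.9% of tested genes were called, 40.9% higher and 40.1% lower at 18 h, and 84.5% of tested genes were called, 42.4% higher and 42.1% lower at 36 h. A count of 9 of 9 is therefore near the background. The median log2 fold change of the 9 was 0.66 at 18 h and 0.40 at 36 h, against -0.0079 and -0.010 over all tested genes. With 5 receptors higher and 4 lower, each median is the value of Ccr7, the smallest rise, and does not describe a shift of the set. All 18 calls were kept under every alternative setting and with any 1 library left out.

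Ccr8, a receptor of effector Tregs, had the largest increase. It had 158, 153 and 152 CPM in 18 h controls and 149, 143 and 147 CPM in 36 h controls, against 29.6, 28.8 and 33.5 CPM in resting Tregs. Every control library lay above every resting one, and the log2 fold change was 2.34 ± 0.043 (SE) at 18 h (5.06-fold, adjusted p = 1.62e-41) and 2.26 ± 0.043 at 36 h (adjusted p = 2.88e-41). Ccr4, which reads Ccl17 and Ccl22, had 112, 106 and 112 CPM in 18 h controls and 116, 122 and 116 CPM in 36 h controls, against 38.6, 37.9 and 37.7 CPM in resting cells. It was 2.89-fold higher at 18 h and 3.1-fold higher at 36 h (adjusted p = 6.33e-32 and 1.62e-33), again with no overlap.

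The receptors of inflamed tissue moved in opposite directions. Cxcr6 had 23.9, 25.4 and 25.8 CPM in 18 h controls and 20.1, 18.6 and 20.2 CPM in 36 h controls, against 9.59, 9.93 and 9.54 CPM in resting cells. Its log2 fold change was 1.37 ± 0.10 at 18 h and 1.02 ± 0.10 at 36 h (adjusted p = 9.90e-18 and 3.45e-13). Fyco1, which encloses Cxcr6, averaged 30.3 ± 2.46 CPM in controls at 18 h and 22 ± 2.41 CPM at 36 h, against 104 ± 3.76 CPM in resting cells (SD, n = 3 each). Cxcr3 had 24.6, 23.4 and 25.9 CPM in 18 h controls and 20.8, 19.2 and 19.6 CPM in 36 h controls, against 55, 53.6 and 60.1 CPM in resting cells, 2.28-fold and 2.82-fold lower (adjusted p = 1.12e-23 and 7.76e-28). Neither gene overlapped between controls and resting cells.

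Among the receptors of lymphoid tissue, Ccr7 rose and the other two fell. Ccr7 had 296, 302 and 292 CPM in 18 h controls and 255, 242 and 248 CPM in 36 h controls, against 188, 188 and 186 CPM in resting Tregs, 1.58-fold and 1.32-fold higher (adjusted p = 8.06e-23 and 6.77e-15). Cxcr5 had 16.1, 15.4 and 16.4 CPM in 18 h controls and 15.7, 16.4 and 16.1 CPM in 36 h controls, against 45, 42.4 and 47.2 CPM in resting cells. Its log2 fold change was -1.49 ± 0.074 at 18 h and -1.48 ± 0.072 at 36 h (adjusted p = 7.92e-24 and 2.77e-24). Bcl9l, with which Cxcr5 shares exonic bases, averaged 40.2 CPM in controls at 18 h and 38.4 CPM at 36 h, against 213 CPM in resting cells, and its part in the Cxcr5 values was not tested. Cxcr4 had 14.4, 15.1 and 15.3 CPM in 18 h controls and 8.26, 7.8 and 5.83 CPM in 36 h controls, against 85, 92.6 and 96.1 CPM in resting cells, 6.11-fold and 12.6-fold lower (adjusted p = 8.06e-36 and 1.17e-40).

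The mucosal receptors also parted. Ccr6 had 57.8, 54.2 and 54.7 CPM in 18 h controls and 63.6, 62.9 and 66.4 CPM in 36 h controls, against 36.1, 32.2 and 35 CPM in resting cells, 1.62-fold and 1.87-fold higher (adjusted p = 6.65e-16 and 9.02e-21). Ccr9 had 4, 0 and 0 counts in controls at 18 h and 2, 2 and 8 counts at 36 h, against 123, 121 and 94 counts in resting cells. Per scaled total it was 109.5 times lower in controls at 18 h (95% exact counting interval 42.4 to 404) and 44.1 times lower at 36 h (24.9 to 86.1), where the intervals cover counting error only. The adjusted p was 8.31e-19 at 18 h and 1.37e-18 at 36 h. The transcript that shares most exonic bases with Ccr9 averaged at most 0.286 CPM in cultured groups, against 1.29 CPM in resting cells.

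**Figure D2:**
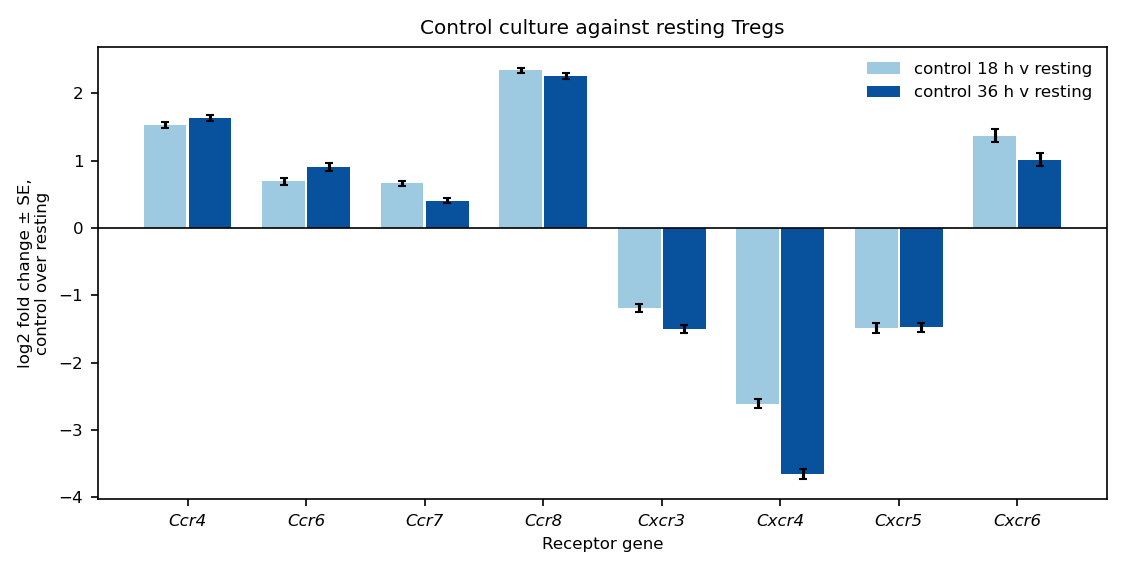
The log2 fold change (± SE) of 8 receptors in control cultures over resting Tregs is shown for 18 h and 36 h. Ccr4, Ccr6, Ccr7, Ccr8 and Cxcr6 lie above 0 at both times and Cxcr3, Cxcr4 and Cxcr5 below it; Ccr9 is left out because it had 0 to 8 counts per cultured library.

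Between 36 h and 18 h of control culture 6 (2 higher and 4 lower) of the 9 receptors changed, where 52.2% of tested genes were called, 25.6% higher and 26.6% lower. Cxcr4 changed most and was 2.06-fold lower at 36 h (log2 fold change -1.04 ± 0.087, adjusted p = 1.87e-14). Cxcr6 (-0.35 ± 0.081, adjusted p = 0.000274), Cxcr3 (-0.31 ± 0.064, adjusted p = 5.47e-05) and Ccr7 (-0.26 ± 0.034, adjusted p = 7.00e-09) were lower as well. Ccr6 was higher by 0.21 ± 0.048 (adjusted p = 0.000246) and Ccr4 by 0.10 ± 0.041 (adjusted p = 0.0331). The Ccr4 call was lost without control replicate 2 of 18 h (0.079, adjusted p = 0.153) or of 36 h (0.075, adjusted p = 0.169). It was also lost with upper quartile scaling (0.054, adjusted p = 0.269), limma on log2(TPM + 1) (adjusted p = 0.118), a ribosomal RNA locus transcript's level as covariate (adjusted p = 0.0781) and without the 6 libraries over 10000 CPM of it (adjusted p = 0.334). The Ccr6 call was lost with limma (0.13, adjusted p = 0.116). Ccr8 differed by -0.077 ± 0.035 (adjusted p = 0.0589) and was called lower with upper quartile scaling (-0.12, adjusted p = 0.00281). The Cxcr5 difference was 0.011 ± 0.079 (adjusted p = 0.922). Ccr9 was not called (adjusted p = 0.208), but was higher at 36 h without control replicate 1 of 18 h, which leaves that group at 0 (adjusted p = 0.00687), and without those 6 libraries (adjusted p = 0.0488).

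Each agonist was set against the control of its own time, which received the same anti-CD3, anti-CD28 and IL-2 but no agonist. Over the 8 comparisons Cxcr6 fell and Ccr7 rose in all, while the effects on Ccr8, Ccr4 and Cxcr4 differed both by time and by agonist. With the TNFR2 agonist at 18 h 8 (4 higher and 4 lower) of the 9 receptors were called, where 31.1% of tested genes were called, 15.8% higher and 15.3% lower. For the 4-1BB agonist at 18 h 7 (3 higher and 4 lower) of the 9 receptors were called, where 25.8% of tested genes were called, 12.7% higher and 13.1% lower. With the DR3 agonist at 18 h 6 (3 higher and 3 lower) of the 9 receptors were called, where 19.6% of tested genes were called, 9.66% higher and 9.94% lower. For the OX40 agonist at 18 h 5 (2 higher and 3 lower) of the 9 receptors were called, where 19% of tested genes were called, 9.32% higher and 9.71% lower. With the TNFR2 agonist at 36 h 7 (5 higher and 2 lower) of the 9 receptors were called, where 24.8% of tested genes were called, 13% higher and 11.9% lower. For the 4-1BB agonist at 36 h 7 (3 higher and 4 lower) of the 9 receptors were called, where 22.5% of tested genes were called, 10.9% higher and 11.5% lower. With the DR3 agonist at 36 h 4 (3 higher and 1 lower) of the 9 receptors were called, where 13.4% of tested genes were called, 6.97% higher and 6.39% lower. For the OX40 agonist at 36 h 5 (3 higher and 2 lower) of the 9 receptors were called, where 13.3% of tested genes were called, 7.12% higher and 6.21% lower. The 4 comparisons of a time share their controls, and the 9 receptors were chosen with earlier results of these data known. An excess of called receptors over these shares is therefore no test of the set. In total 49 of 72 tests were called, 26 higher and 23 lower. Agonist and control libraries did not overlap in any of the 49. The share of all tested genes without overlap was not counted in any comparison. Absence of overlap therefore adds nothing to the calls, here or where single receptors are described. Cxcr3 and Cxcr5 did not overlap in any of the 8 comparisons, although 7 and 3 of these were called. Of the 49 calls 34 were kept under every alternative setting and with any 1 library left out.

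**Figure D3:**
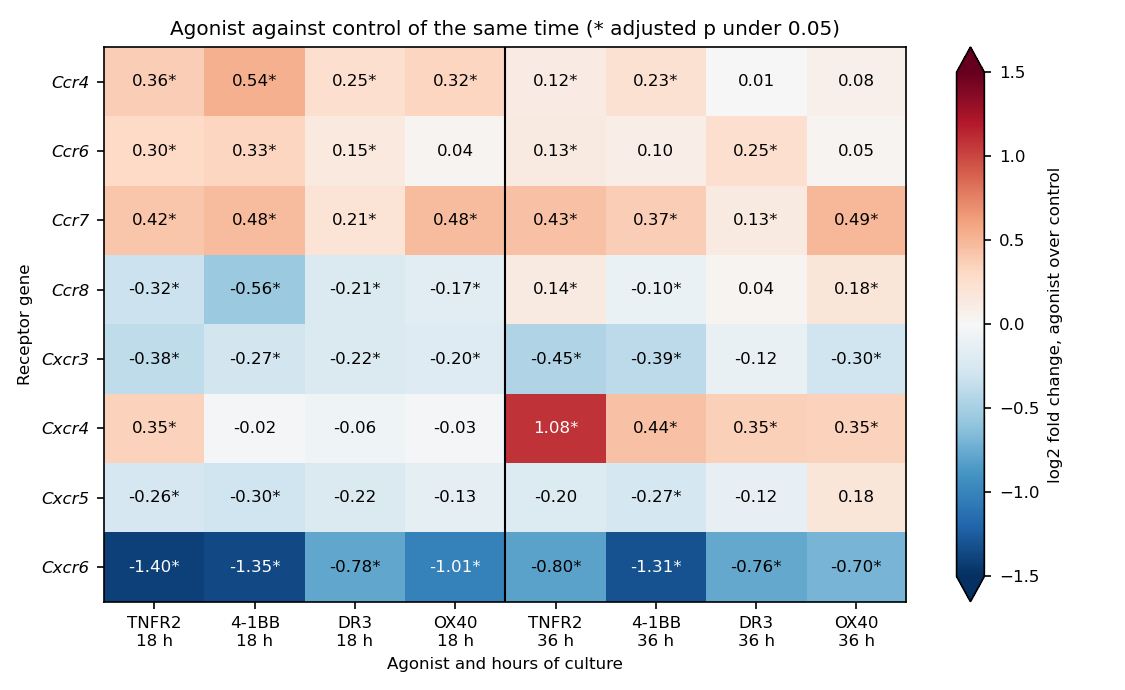
The log2 fold change, agonist over control, of 8 receptors (rows) is printed and coloured for the 8 comparisons (columns), red where higher and blue where lower, with an asterisk where adjusted p was under 0.05. Cxcr6 is lower throughout (-1.40 to -0.70) and Ccr7 higher throughout (0.13 to 0.49), while Ccr8 is lower at 18 h and mixed at 36 h; Ccr9 is left out for its low counts.

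A technical measure moved with the controls at 18 h. The transcript at the ribosomal RNA locus had 10210, 26030 and 8114 CPM in these controls, against 1407 to 11860 CPM in agonist libraries at 18 h. At 36 h the imbalance ran the other way, with 3246, 741.4 and 849.4 CPM in controls against 1206 to 15000 CPM in agonist libraries. The differences between times given below span this change. Leaving out the 6 libraries with over 10000 CPM of this transcript leaves 1 control at 18 h. Called receptors then kept their direction at 18 h, but the call was lost for Cxcr4 with the TNFR2 agonist (0.30, adjusted p = 0.115), Ccr6 with the DR3 agonist (0.17, adjusted p = 0.202), and Ccr8 (-0.15, adjusted p = 0.123) and Cxcr3 (-0.27, adjusted p = 0.0901) with the OX40 agonist. Other settings ended further calls. With limma on log2(TPM + 1) the Cxcr5 calls were lost (adjusted p = 0.309 and 0.372 with the TNFR2 and 4-1BB agonists at 18 h, 0.123 with the 4-1BB agonist at 36 h). So were those of Cxcr4 with the TNFR2 agonist at 18 h (0.154) and the DR3 and OX40 agonists at 36 h (0.0733 and 0.0868). Ccr6 with the DR3 agonist was lost at both times (0.483 and 0.121), as was Ccr8 with the TNFR2 agonist at 36 h (0.127). Of the 11 settings, 7 ended the Cxcr3 call with the OX40 agonist at 18 h, 5 that of Ccr6 and 4 that of Ccr4 with the TNFR2 agonist at 36 h, and 4 that of Ccr8 with the 4-1BB agonist at 36 h.

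Cxcr6 was lower with every agonist at both times. At 18 h it had 9.14, 9.04 and 10.2 CPM with the TNFR2 agonist, 9.6, 9.06 and 10.8 CPM with the 4-1BB agonist, 14.4, 16.2 and 12.7 CPM with the DR3 agonist and 13.1 and 11.6 CPM with the OX40 agonist, against 23.9, 25.4 and 25.8 CPM in controls. All 11 agonist libraries lay below the 3 controls, and those of the TNFR2 and 4-1BB agonists overlapped the resting range of 9.54 to 9.93 CPM. The log2 fold changes were -1.40 ± 0.094, -1.35 ± 0.092, -0.78 ± 0.089 and -1.01 ± 0.10 in that order, with adjusted p of 1.37e-09 or less. At 36 h Cxcr6 had 12.1, 12.1 and 9.71 CPM with the TNFR2 agonist, 8.73, 8.29 and 6.77 CPM with the 4-1BB agonist, 11.4, 10.5 and 12.9 CPM with the DR3 agonist and 13.3, 10.7 and 11.5 CPM with the OX40 agonist, against 20.1, 18.6 and 20.2 CPM in controls. It was 1.74-fold, 2.48-fold, 1.7-fold and 1.62-fold lower in that order (adjusted p of 2.51e-08 or less), again without overlap. All 8 calls were kept under every alternative. Fyco1 averaged 23.4 to 24.4 CPM over the agonist groups against 30.3 CPM in controls at 18 h, and 17.9 to 20.9 CPM against 22 CPM at 36 h. Its part in the Cxcr6 values was not tested.

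Cxcr3 was lower with agonists by smaller amounts. At 18 h it had 17.4 to 22.5 CPM over the 11 agonist libraries against 23.4 to 25.9 CPM in controls, and at 36 h 13.6 to 18.7 CPM over the 12 agonist libraries against 19.2 to 20.8 CPM in controls. Of the 8 comparisons 7 were called. The largest difference was 1.37-fold with the TNFR2 agonist at 36 h (-0.45 ± 0.069, adjusted p = 1.22e-06). The DR3 agonist at 36 h gave -0.12 ± 0.065 (adjusted p = 0.268). The OX40 call at 18 h (-0.20 ± 0.071, adjusted p = 0.0464) was lost without control replicate 1 or 3 (adjusted p = 0.0883 and 0.187) and without OX40 replicate 1 or 2 (adjusted p = 0.274 and 0.0813). The DR3 call at 18 h (-0.22 ± 0.067, adjusted p = 0.0125) was lost without control replicate 3 (adjusted p = 0.0901) or DR3 replicate 1 or 3 (adjusted p = 0.0627 and 0.0719).

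Ccr7, the receptor for lymph node entry, was higher with every agonist at both times. At 18 h it had 397, 388 and 404 CPM with the TNFR2 agonist, 408, 410 and 421 CPM with the 4-1BB agonist, 327, 339.5 and 362 CPM with the DR3 agonist and 418 and 409 CPM with the OX40 agonist, against 296, 302 and 292 CPM in controls. Its log2 fold changes were 0.42 ± 0.034, 0.48 ± 0.033, 0.21 ± 0.034 and 0.48 ± 0.037 in that order (adjusted p of 5.46e-06 or less). At 36 h it had 337, 339 and 329 CPM with the TNFR2 agonist, 315, 320.5 and 324 CPM with the 4-1BB agonist, 275, 269 and 273 CPM with the DR3 agonist and 342, 340.3 and 364 CPM with the OX40 agonist, against 255, 242 and 248 CPM in controls. The changes were 0.43 ± 0.034, 0.37 ± 0.034, 0.13 ± 0.034 and 0.49 ± 0.034 in that order (adjusted p of 0.00416 or less). The DR3 agonist gave the smallest change at each time.

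Cxcr5 was lower in 3 comparisons, by 0.26 with the TNFR2 agonist (adjusted p = 0.0165) and 0.30 with the 4-1BB agonist at 18 h (adjusted p = 0.00467) and by 0.27 with the 4-1BB agonist at 36 h (adjusted p = 0.0117) on the log2 scale. The first call was lost without TNFR2 replicate 3 (-0.13, adjusted p = 0.272), the lowest of its group, which had 14.7, 14.2 and 11 CPM, or without control replicate 3 (-0.23, adjusted p = 0.0687). The call at 36 h was lost without 4-1BB replicate 1 (-0.24, adjusted p = 0.0603) or 2 (-0.25, adjusted p = 0.0515). With the OX40 agonist at 36 h Cxcr5 had 19.3, 18.2 and 16.7 CPM against 15.7, 16.4 and 16.1 CPM in controls, a difference of 0.18 ± 0.076 that did not pass the test (adjusted p = 0.112). With the TNFR2 agonist at 36 h Cxcr5 had 13.5, 13.7 and 14.7 CPM, all below the controls, but was not called. In 9 of 11 alternative settings it was not called either, and in the rest it was called lower. The DR3 values were -0.22 ± 0.086 at 18 h (adjusted p = 0.0654; called without DR3 replicate 1, adjusted p = 0.0337) and -0.12 ± 0.078 at 36 h (adjusted p = 0.357).

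Relative to controls of the same time, Cxcr4 was higher by the largest amount with the TNFR2 agonist. From 18 h to 36 h its mean went from 14.9 to 7.3 CPM in controls and from 19 to 15.3 CPM with that agonist. Both stayed below the mean of 91.2 CPM in resting cells. Cxcr4 had 19.2, 18.1 and 19.6 CPM with the TNFR2 agonist at 18 h against 14.4, 15.1 and 15.3 CPM in controls (0.35 ± 0.077, adjusted p = 0.000358). At 36 h it had 15.7, 15.8 and 14.5 CPM against 8.26, 7.8 and 5.83 CPM in controls (1.08 ± 0.086, 2.11-fold, adjusted p = 2.56e-14). With the 4-1BB, DR3 and OX40 agonists the log2 differences at 18 h were -0.022 ± 0.079, -0.060 ± 0.082 and -0.029 ± 0.087 (adjusted p = 0.876, 0.671 and 0.868). At 36 h Cxcr4 was higher with these 3 as well, at 8.87 to 10.2 CPM over 9 libraries, by 0.44 ± 0.092, 0.35 ± 0.091 and 0.35 ± 0.092 (adjusted p = 0.000199, 0.00527 and 0.00556). The DR3 and OX40 calls were lost without control replicate 3, the lowest control (0.21, adjusted p = 0.143, and 0.20, adjusted p = 0.166).

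Ccr4 and Ccr8, which both rose in control culture, went opposite ways with the agonists at 18 h. Ccr4 had 147, 141 and 138 CPM with the TNFR2 agonist, 155, 161 and 163 CPM with the 4-1BB agonist, 129.9, 129 and 133 CPM with the DR3 agonist and 129.8 and 145 CPM with the OX40 agonist, against 112, 106 and 112 CPM in controls. All 11 agonist libraries lay above the controls, and the log2 fold changes were 0.36 ± 0.041, 0.54 ± 0.040, 0.25 ± 0.041 and 0.32 ± 0.045 in that order (adjusted p of 9.41e-06 or less). Ccr8 had 124, 122 and 124 CPM with the TNFR2 agonist, 107, 103 and 105 CPM with the 4-1BB agonist, 134, 129 and 137 CPM with the DR3 agonist and 136 and 139 CPM with the OX40 agonist, against 158, 153 and 152 CPM in controls. All 11 lay below the controls, and the changes were -0.32 ± 0.036, -0.56 ± 0.036, -0.21 ± 0.036 and -0.17 ± 0.039 in that order (adjusted p of 0.00103 or less).

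At 36 h Ccr4 was higher by 0.12 ± 0.040 with the TNFR2 agonist (adjusted p = 0.0185) and by 0.23 ± 0.040 with the 4-1BB agonist (adjusted p = 1.43e-05). The DR3 and OX40 values were 0.0066 ± 0.040 and 0.077 ± 0.040 (adjusted p = 0.947 and 0.227). The TNFR2 call was lost without control replicate 1 or 3 (adjusted p = 0.0659 and 0.0763) and without TNFR2 replicate 1 or 3 (adjusted p = 0.0509 and 0.0964). Ccr8 at 36 h had 158, 165 and 161 CPM with the TNFR2 agonist, 136, 136 and 139 CPM with the 4-1BB agonist, 153, 147 and 153 CPM with the DR3 agonist and 164, 165 and 167 CPM with the OX40 agonist, against 149, 143 and 147 CPM in controls. It was higher with the TNFR2 agonist (0.14 ± 0.035, adjusted p = 0.00188) and the OX40 agonist (0.18 ± 0.035, adjusted p = 0.000153) and lower with the 4-1BB agonist (-0.10 ± 0.035, adjusted p = 0.0377). The DR3 value was 0.042 ± 0.035 (adjusted p = 0.488). The 4-1BB call was lost without control replicate 1 or 3 (adjusted p = 0.15 and 0.0825) and without 4-1BB replicate 1, 2 or 3 (adjusted p = 0.102, 0.116 and 0.0642).

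Ccr6 was higher with 3 agonists at 18 h, when it had 69.1, 68.4 and 68 CPM with the TNFR2 agonist, 74.7, 69 and 65.5 CPM with the 4-1BB agonist, 58.7, 61.9 and 64.2 CPM with the DR3 agonist and 53.4 and 60.8 CPM with the OX40 agonist, against 57.8, 54.2 and 54.7 CPM in controls. The log2 fold changes were 0.30 ± 0.049 with the TNFR2 agonist (adjusted p = 2.31e-06), 0.33 ± 0.049 with the 4-1BB agonist (adjusted p = 3.79e-07) and 0.15 ± 0.051 with the DR3 agonist (adjusted p = 0.0309). The OX40 value was 0.038 ± 0.055 (adjusted p = 0.701). At 36 h the DR3 agonist gave the largest change, with 77.3, 77 and 74.4 CPM against 63.6, 62.9 and 66.4 CPM in controls (0.25 ± 0.046, adjusted p = 9.76e-05). The TNFR2, 4-1BB and OX40 values were 0.13 ± 0.047, 0.10 ± 0.047 and 0.046 ± 0.047 (adjusted p = 0.0358, 0.116 and 0.602). The DR3 call at 18 h was lost without control replicate 2 or 3 (adjusted p = 0.117 and 0.0977) or DR3 replicate 2 or 3 (adjusted p = 0.076 and 0.135). The TNFR2 call at 36 h was lost without control replicate 1 or 2 (adjusted p = 0.0892 and 0.125) or TNFR2 replicate 1 or 3 (adjusted p = 0.153 and 0.0641).

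Ccr9 was called in none of the 8 comparisons (adjusted p = 0.0981 to 0.81). The agonist groups held 3 to 13 counts of it each, against 4 counts in controls at 18 h and 12 at 36 h, so differences were not detectable at this depth. Without control replicate 1 of 18 h, which held all 4 counts, it was called higher with the 4-1BB agonist (adjusted p = 0.0269) and the DR3 agonist (adjusted p = 0.00496) at 18 h, against controls at 0.

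**Figure D4:**
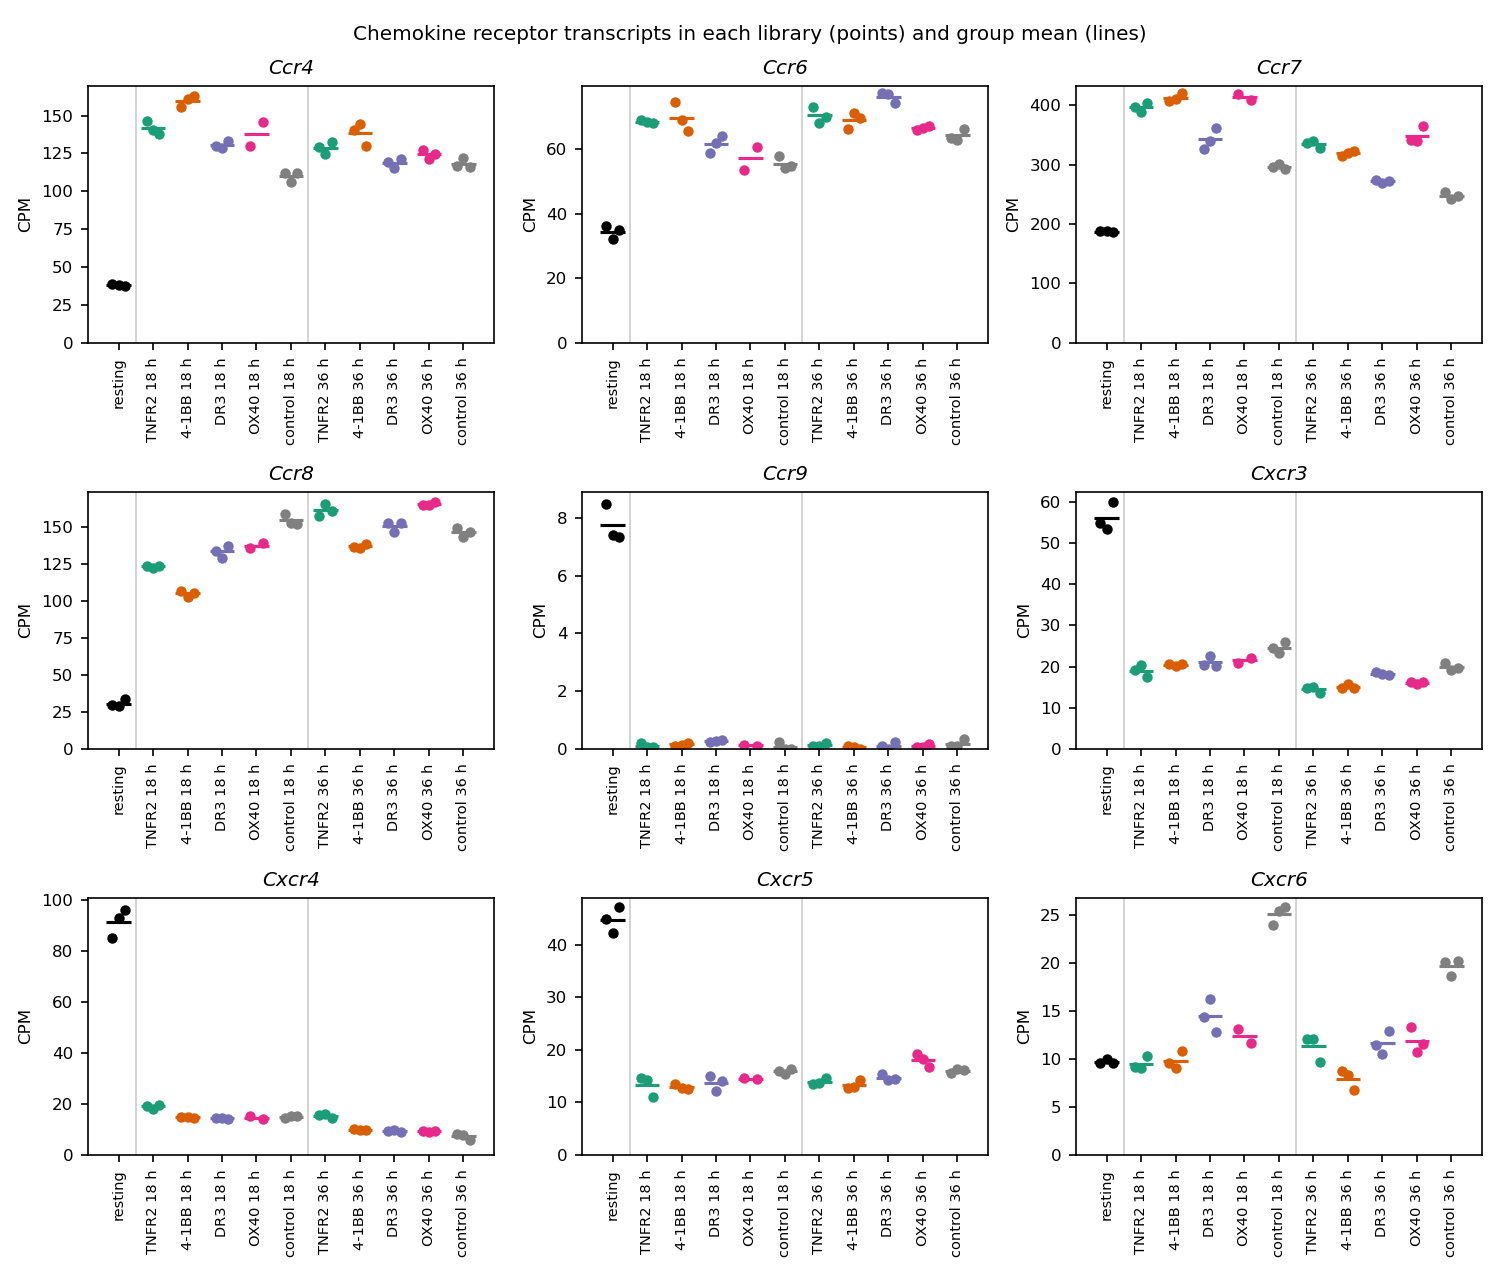
Each panel shows 1 receptor, with the CPM of every library as a point (y axis) by group (x axis). Cxcr6 points of all agonist groups lie below those of the control of the same time, and the 3 resting points of Ccr9, Cxcr3, Cxcr4 and Cxcr5 lie above all cultured ones.

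Whether an agonist's effect differed between 36 h and 18 h was tested as the difference of both log2 fold changes. Of 36 such tests 12 were called. These were 4 receptors with the TNFR2 agonist (background 6.69% of tested genes), 4 with the 4-1BB agonist (4.37%), 2 with the DR3 agonist (2.31%) and 2 with the OX40 agonist (3.48%). Ccr8 and Ccr4 were called with all 4 agonists, in opposite directions. The effect at 36 h minus that at 18 h on Ccr8 was 0.46 ± 0.050 with the TNFR2 agonist, 0.46 ± 0.050 with the 4-1BB agonist, 0.25 ± 0.050 with the DR3 agonist and 0.35 ± 0.052 with the OX40 agonist (adjusted p of 0.0012 or less). On Ccr4 it was -0.24 ± 0.057, -0.31 ± 0.057, -0.24 ± 0.058 and -0.24 ± 0.060 in that order (adjusted p of 0.0129 or less). Cxcr4 was called with the TNFR2 agonist (0.73 ± 0.12, adjusted p = 1.19e-05) and the 4-1BB agonist (0.46 ± 0.12, adjusted p = 0.0136). Cxcr6 was called with the TNFR2 agonist (0.60 ± 0.13, adjusted p = 0.00199) and Ccr6 with the 4-1BB agonist (-0.23 ± 0.068, adjusted p = 0.0413). For Ccr7, Cxcr3 and Cxcr5 the differences were -0.12 to 0.31, with adjusted p of 0.147 or more.

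Of these 12 calls, 8 were kept with any 1 library left out. The Ccr4 difference with the DR3 agonist was lost without control replicate 2 of 18 h (adjusted p = 0.0627), control replicate 2 of 36 h (adjusted p = 0.05) or DR3 replicate 2 of 36 h (adjusted p = 0.0543). With the OX40 agonist it was lost without control replicate 2 of 18 h (adjusted p = 0.0556) or OX40 replicate 2 of 18 h (-0.16, adjusted p = 0.318). The Cxcr4 difference with the 4-1BB agonist was lost without control replicate 3 of 36 h (0.32, adjusted p = 0.12). That of Ccr6 was lost in 8 of the 12 fits that left out 1 library of those groups (adjusted p = 0.0524 to 0.196), and with the replicate number as a block (adjusted p = 0.0525), upper quartile scaling (0.0569), limma (0.26) or the ribosomal covariate (0.0701). The covariate also ended the Ccr4 call with the OX40 agonist (adjusted p = 0.0712) and the Cxcr4 call with the 4-1BB agonist (0.0816), and limma that of Ccr4 with the DR3 agonist (0.247). Without the 6 libraries rich in the ribosomal transcript, 5 of the 36 tests were called, and the 7 lost were Ccr4 with the TNFR2 agonist (adjusted p = 0.324), Ccr4 with the DR3 agonist (adjusted p = 0.299), Ccr4 with the OX40 agonist (adjusted p = 0.35), Ccr6 with the 4-1BB agonist (adjusted p = 0.217), Ccr8 with the DR3 agonist (adjusted p = 0.212), Cxcr4 with the 4-1BB agonist (adjusted p = 0.106) and Cxcr6 with the TNFR2 agonist (adjusted p = 0.0957).

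**Figure D5:**
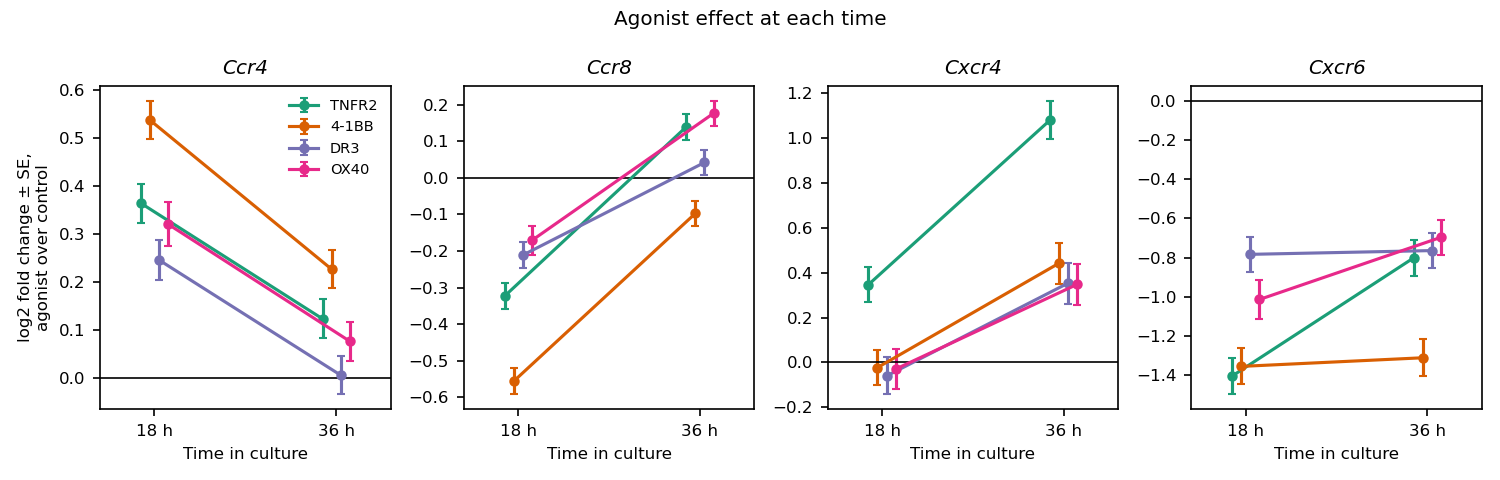
Points give the log2 fold change of each agonist over its control (y axis, ± SE) at 18 h and 36 h (x axis) for Ccr4, Ccr8, Cxcr4 and Cxcr6, with 1 line per agonist. The 4 Ccr8 lines climb and the 4 Ccr4 lines descend, and the Cxcr4 line of the TNFR2 agonist lies above the others at both times.

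Differences among the 4 agonists were tested jointly and in 12 pairs, with p adjusted over all genes within each pair. Doses were not matched, so each difference belongs to the doses used. The joint test was called for 6 of the 9 receptors at 18 h (background 14.3% of tested genes) and 8 at 36 h (9.06%). At 18 h these were Ccr8 (adjusted p = 9.13e-11), Ccr7 (2.77e-08), Ccr4 (2.44e-06), Cxcr6 (1.31e-05), Ccr6 (0.000111) and Cxcr4 (0.000168). At 36 h Ccr7 (adjusted p = 5.99e-11) and Cxcr4 (6.86e-10) had the smallest values, and Ccr9 was not called (0.749). Ccr6 at 36 h was lost without DR3 replicate 1 or 2 (adjusted p = 0.0938 and 0.0659), without the ribosome-rich libraries (0.0743) and with limma (0.254). Limma also lost Ccr4 (0.0654) and Cxcr5 (0.124) at 36 h. Over the 12 pairs 41 of 108 tests were called. At 18 h the called receptors of each pair, with the share of all tested genes called, were 3 (5.56%) for TNFR2 against 4-1BB, 3 (3.74%) for TNFR2 against DR3, 4 (8.19%) for TNFR2 against OX40, 5 (8.54%) for 4-1BB against DR3, 3 (4.26%) for 4-1BB against OX40 and 1 (4.12%) for DR3 against OX40. At 36 h the called receptors of each pair, with the share of all tested genes called, were 3 (3.7%) for TNFR2 against 4-1BB, 3 (3.56%) for TNFR2 against DR3, 2 (4.02%) for TNFR2 against OX40, 5 (5.43%) for 4-1BB against DR3, 5 (3.63%) for 4-1BB against OX40 and 4 (1.7%) for DR3 against OX40. Of the 41 calls 24 were kept under every alternative. Between DR3 and OX40 at 36 h, 6 fits left out 1 library each. The Ccr8 call was kept in 0 of them, Cxcr5 in 2, Ccr6 in 3 and Ccr7 in 6. Between 4-1BB and OX40 at 36 h, Ccr4 was kept in 2 of 6 such fits and Ccr7 in 3.

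Cxcr4 was higher with the TNFR2 agonist than with each of the others at both times. The log2 differences from the 4-1BB, DR3 and OX40 agonists were 0.37 ± 0.076, 0.41 ± 0.080 and 0.38 ± 0.085 at 18 h and 0.64 ± 0.083, 0.73 ± 0.083 and 0.73 ± 0.083 at 36 h (adjusted p of 0.00268 or less). The one from the OX40 agonist at 18 h was lost without OX40 replicate 2 (0.32, adjusted p = 0.111). The 4-1BB agonist stood apart for Ccr8, which was lower with it than with the TNFR2, DR3 and OX40 agonists by 0.23 to 0.39 at 18 h and by 0.14 to 0.27 at 36 h. The one from the DR3 agonist at 36 h was lost without DR3 replicate 1 (-0.13, adjusted p = 0.0576). Ccr4 at 18 h was higher with the 4-1BB agonist than with the other 3, by 0.17 to 0.29, and the difference from the OX40 agonist was lost without OX40 replicate 1 (0.14, adjusted p = 0.118). With limma 5 of these differences were lost. They were those of Cxcr4 between the TNFR2 agonist and the 4-1BB and OX40 agonists at 18 h (adjusted p = 0.0661 and 0.0606), of Ccr8 between the 4-1BB and DR3 agonists at 36 h (0.082), and of Ccr4 between the 4-1BB agonist and the TNFR2 and OX40 agonists at 18 h (0.132 and 0.107). That of Ccr8 was also lost without the ribosome-rich libraries (adjusted p = 0.078).

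Ccr7 was lower with the DR3 agonist than with the other 3, by 0.21 to 0.27 at 18 h and by 0.23 to 0.36 at 36 h. Cxcr6 at 18 h was lower with the TNFR2 and 4-1BB agonists than with the DR3 agonist (-0.62 ± 0.10 and -0.57 ± 0.10, adjusted p of 5.96e-05 or less), and the TNFR2 and 4-1BB agonists differed by -0.048 ± 0.11 (adjusted p = 0.869). At 36 h Cxcr6 was lower with the 4-1BB agonist than with the other 3, by 0.51 to 0.61, and the other 3 differed from each other by -0.10 to -0.036 (adjusted p = 0.649 to 0.921). Cxcr5 at 36 h was higher with the OX40 agonist than with the other 3, by 0.30 to 0.45. Without OX40 replicate 1 its differences from the TNFR2 and DR3 agonists were lost (adjusted p = 0.0661 and 0.403). The DR3 one was also lost without OX40 replicate 2 or DR3 replicate 2 or 3 (adjusted p = 0.0744, 0.153 and 0.108). With limma the differences from the TNFR2, 4-1BB and DR3 agonists were all lost (adjusted p = 0.178, 0.149 and 0.225). Without the ribosome-rich libraries those from the TNFR2 and DR3 agonists were lost (adjusted p = 0.0617 and 0.268).

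Of 15 other chemokine receptors and atypical receptors 8 were tested, and with the agonists 2 to 3 of them were lower and 0 to 1 higher per comparison, with list medians of -0.94 to -0.34 against -0.012 to 0.0024 over all genes. Genes given as higher or lower here and in the lists that follow passed the same test over all genes. In controls at 18 h 2 were higher and 4 lower than in resting cells. Over all tested genes 40.9% were higher and 40.1% lower in that contrast, and per agonist comparison 6.97% to 15.8% were higher and 6.21% to 15.3% lower. Ccr2, a receptor of monocytes and effector T cells, fell in control culture (-2.83 ± 0.20 at 18 h) and was lower again in 7 of 8 agonist comparisons, the exception being the OX40 agonist at 18 h (-0.71 ± 0.30). Ccrl2, an atypical receptor, was higher at 36 h with the TNFR2, 4-1BB and DR3 agonists (0.89 ± 0.23, 1.11 ± 0.22 and 0.75 ± 0.22).

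Of 14 ligands of the 9 receptors 6 were tested. In control culture Ccl20, the ligand of Ccr6, was higher by 5.89 ± 0.32 at 18 h and 6.05 ± 0.31 at 36 h, and Ccl1, the ligand of Ccr8, by 1.67 ± 0.24 and 2.74 ± 0.21. Cxcl16, the ligand of Cxcr6, was higher by 2.71 ± 0.79 and 2.29 ± 0.82, and Cxcl10, a ligand of Cxcr3, was lower (-1.86 ± 0.11 and -2.98 ± 0.12). Cxcl10 was higher with agonists in 7 of 8 comparisons, by 1.43 ± 0.11 with the TNFR2 agonist at 18 h and 1.49 ± 0.11 with the 4-1BB agonist at 18 h, while the OX40 value at 36 h was 0.43 ± 0.16 and not called. Ccl1 was higher at 18 h with the DR3 and OX40 agonists (0.66 ± 0.17 and 0.77 ± 0.17). Ccl20 was lower with the TNFR2 agonist at 18 h (-0.48 ± 0.14) and higher with the DR3 agonist at 36 h (0.44 ± 0.11). Per agonist comparison 0 to 2 ligands were higher and 0 to 1 lower, where 6.97% to 15.8% of all tested genes were higher and 6.21% to 15.3% lower.

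Of 28 genes that carry or end the receptors' signal 27 were tested, and in controls at 18 h 6 rose and 20 fell against resting cells, where 40.9% of all tested genes rose and 40.1% fell. With agonists 3 to 7 were higher and 9 to 10 lower at 18 h, and 2 to 5 higher and 4 to 7 lower at 36 h. The shares over all tested genes per agonist comparison were 6.97% to 15.8% higher and 6.21% to 15.3% lower. Pik3cg, the catalytic subunit of PI3K gamma that Gi-coupled receptors activate, was lower with all 4 agonists at both times, by 0.51 to 1.25. Rgs10, which shortens Gi signals, was lower in all 8 comparisons too, by 0.22 to 0.86. Adrbk1, the kinase GRK2 that desensitises these receptors, was higher in all 8, by 0.11 to 0.42. List medians were -0.092 to 0.012.

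All 15 other trafficking receptors were tested, and in controls at 18 h 2 rose and 13 fell against resting cells, with the same 40.9% and 40.1% over all tested genes. With agonists 2 to 5 were higher and 3 to 7 lower, with medians of -0.10 to -0.031. Gpr183, an oxysterol receptor that positions cells at follicle borders, was higher in all 8, by 0.30 to 0.86. All 23 transcription factors known to act on these receptors were tested, and 6 to 9 were higher and 7 to 11 lower per agonist comparison, with medians of -0.091 to 0.069. For both lists the shares over all tested genes per agonist comparison were 6.97% to 15.8% higher and 6.21% to 15.3% lower. Batf was higher in all 8, by 0.36 to 1.03. Bach2, a repressor of effector genes, was lower in all 8, by 0.12 to 0.53, as was Klf2, a factor of lymph node homing genes, by 0.47 to 1.42. Klf2 had fallen by 3.00 in controls at 18 h against resting cells.

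Across the 11 group means of log2 CPM, Pearson's r was 0.869 between Ccr4 and Ccr8 and -0.978 between Ccr4 and Cxcr5, whereas r of Cxcr6 with the other receptors was -0.268 to 0.327. These points share library depth and the step between resting and cultured cells, and r is a description. The pair of genes whose group means ran most like each receptor were Uqcrc2 and Sytl3 for Ccr4 (r = 0.997 and 0.994), Isy1 and Slco4a1 for Ccr8 (r = 0.996 and 0.991) and Sfmbt1 and Nfkbib for Ccr7 (r = 0.965 and 0.963). They were Tex15 and Ncf1 for Ccr6 (r = 0.976 and 0.971), Acsf2 and Wbp1 for Ccr9 (r = 0.986 and 0.983) and Itpr2 and Fam208a for Cxcr3 (r = 0.994 and 0.993). The remaining pairs were Cd247 and Rarg for Cxcr4 (r = 0.988 and 0.984), Fut11 and Cblb for Cxcr5 (r = 0.988 and 0.988) and Cdh23 and Syp for Cxcr6 (r = 0.947 and 0.927).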

How the data were processed

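The labels' protocols give RNA extraction with NucleoSpin RNA XS and SMART-Seq v4 libraries. STAR 2.5.3a, RSEM 1.2.28, Trimmomatic, FastQC and mm10 are named in the submitters' processing notes; neither annotation release nor counting strand is given in the sources used here. Per gene, the authors deposited RSEM expected counts (estimated reads, unscaled) and TPM (scaled for length and library).

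Expected counts were rounded to whole numbers. The test came from edgeR 4.0.16 (R 4.3.3): filterByExpr, TMM scaling, 1 mean for each of the 11 groups over all 32 libraries, a robust quasi-likelihood F test, and Benjamini-Hochberg adjustment over 14313 genes, called under 0.05. Standard errors were derived from the F statistic. CPM used TMM-scaled totals, and gene positions came from GENCODE on mm10. The fit was tested on simulated data. Alternatives were DESeq2 1.42.0, limma 3.58.1, other scalings and filters, a replicate block, a ribosomal covariate and left-out libraries.

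Members, lists and the naming rule (all 9 receptors, list genes with the 4 smallest p per comparison, the 2 genes of highest r) were chosen with earlier results of these data known; a named list gene is then given in further comparisons. Every same-number correlation was over 0.1 in 5 of 55 pairs of groups. Of these only controls at 36 h with resting cells (0.104 to 0.468) are set against each other in a comparison of 2 groups, where the block changed no receptor call. The TNFR2 agonist at 18 h with that at 36 h (0.111 to 0.335) enters the difference between times of that agonist. The 4-1BB agonist at 18 h with controls at 36 h (0.123 to 0.191) enters that of the 4-1BB agonist. In these differences the block ended no TNFR2 call and 1 call with the 4-1BB agonist, that of Ccr6, given in the closing section. No 2 libraries of a group agreed within sampling noise. Some list genes are not reported here. Depth, counts and the spread between libraries set the precision of the tests, and the Ccr9 intervals cover counting error only.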

Additional observations from a re-analysis of the deposited data

Results flagged for a closer look

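The effect of an agonist on a receptor differed between 36 h and 18 h by the test of the difference itself in 12 of 36 cases. With the TNFR2 agonist the effect at 36 h minus that at 18 h was -0.24 ± 0.057 for Ccr4 (adjusted p = 0.00465), 0.46 ± 0.050 for Ccr8 (adjusted p = 2.58e-09), 0.73 ± 0.12 for Cxcr4 (adjusted p = 1.19e-05), 0.60 ± 0.13 for Cxcr6 (adjusted p = 0.00199). With the 4-1BB agonist the effect at 36 h minus that at 18 h was -0.31 ± 0.057 for Ccr4 (adjusted p = 0.000176), -0.23 ± 0.068 for Ccr6 (adjusted p = 0.0413), 0.46 ± 0.050 for Ccr8 (adjusted p = 3.14e-09), 0.46 ± 0.12 for Cxcr4 (adjusted p = 0.0136). With the DR3 agonist the effect at 36 h minus that at 18 h was -0.24 ± 0.058 for Ccr4 (adjusted p = 0.0122), 0.25 ± 0.050 for Ccr8 (adjusted p = 0.0012). With the OX40 agonist the effect at 36 h minus that at 18 h was -0.24 ± 0.060 for Ccr4 (adjusted p = 0.0129), 0.35 ± 0.052 for Ccr8 (adjusted p = 1.63e-05). Values are log2 differences ± SE from edgeR's quasi-likelihood test, and both effects rest on 3 controls of each time. Without the 6 libraries over 10000 CPM of the ribosomal locus transcript 5 were called.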

How the results depend on the processing

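All 18 control against resting calls were kept under every alternative, as were 4 of 6 calls between control times, 34 of 49 agonist calls, 11 of 14 joint calls, 5 of 12 differences between times and 24 of 41 pair calls. Without the libraries over 10000 CPM of the ribosomal transcript, which leaves 1 control at 18 h, 3 receptors were called with the OX40 agonist at 18 h, 5 differences between times, and 1876, 1873, 1150 and 1181 genes of all with the TNFR2, 4-1BB, DR3 and OX40 agonists at 18 h, against 4456, 3690, 2806 and 2724; this setting fits fewer samples. With limma on log2(TPM + 1), 4 receptors were called with the TNFR2 and 2 with the DR3 agonist at 36 h, 5 in the joint test at 36 h and 26 in pairs. The same setting called 1672 genes with the OX40 agonist at 18 h, and 2280, 1905, 911 and 1046 with the 4 agonists at 36 h, against 3551, 3215, 1912 and 1908. The cause of these differences was not tested. Leaving out 1 library gave 1491 to 2534 genes for the OX40 agonist at 18 h and 1191 to 1792 for the DR3 agonist at 36 h.

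Reversals met values that were not called. Cxcr5 between controls of 36 h and 18 h was -0.036 with upper quartile scaling, -0.023 without the ribosome-rich libraries and -0.010 to 0.032 leaving out 1. With the OX40 agonist at 18 h Cxcr4 was 0.013 with the ribosomal covariate and -0.10 to 0.026 leaving out 1, Ccr6 was -0.031 with limma and -0.058 to 0.13 leaving out 1, and Cxcr5 was 0.12 with limma. Cxcr4 with the 4-1BB agonist at 18 h was 0.013 with the covariate, and Ccr6 with the OX40 agonist at 36 h -0.027 with limma. Ccr4 with the DR3 agonist at 36 h was -0.0037 without the filter, -0.0064 without the ribosome-rich libraries and -0.0074 to 0.033 leaving out 1. Ccr9, at a few counts, ranged over -0.22 to 4.19 and -0.67 to 0.60 with the TNFR2 agonist at 18 h and 36 h and -1.48 to 0.15 with the DR3 agonist at 36 h. Upper quartile scaling moved the median of all genes to -0.16 and -0.21 in controls of 18 h and 36 h against resting cells.

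The replicate block changed 2 receptor calls: Cxcr5 with the TNFR2 agonist at 36 h was called (-0.20, adjusted p = 0.0496) and the Ccr6 difference between times with the 4-1BB agonist was lost (-0.23, adjusted p = 0.0525). Same-numbered libraries had a median correlation of -0.011 over all pairs of groups and matched their own number best in 47 of 160 cases. Ranking by CPM left 3 to 7 of 9 receptors per group at their TPM rank, and Spearman's rho gave 6 of the 18 most similar genes.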
